A study of Mus musculus with 17 samples.

Results

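The 9 genes described here encode the receptors, signalling enzymes and peptides through which striatal projection neurons answer dopamine: Drd1, Drd2, Adora2a, Ppp1r1b, Pde10a, Rgs9, Adcy5, Penk and Tac1. They were chosen by name as genes of this pathway, with earlier results of these data known, and read by gene symbol from bulk read counts that list 36293 genes and from single-nucleus tables that list 37608 genes. All 9 were found in both. The samples are dissections of cortex, so each gene's RNA was divided between cortical nuclei and nuclei with striatal markers.

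In the striatum, dopamine acts on medium spiny neurons of a direct pathway, which carry the D1 receptor and make substance P, and of an indirect pathway, which carry the D2 and A2a adenosine receptors and make enkephalin. D1 and A2a receptors raise cyclic AMP through the adenylyl cyclase Adcy5, and D2 receptors lower it. Pde10a breaks cyclic nucleotides down, Rgs9 shortens D2 receptor signals, and Ppp1r1b (DARPP-32) carries the cyclic AMP signal to protein phosphatase 1. In cortex the D1 receptor and the peptide genes are known from subsets of neurons.

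All animals were adult male C57BL/6 mice (C57BL/6J in the study's methods), and no allele was altered in either group. Chronic unpredictable stress (CUS) mice met 3 changing stressors a day for 12 days, and control mice were handled daily in a separate room. Nuclear RNA was sequenced in bulk from medial prefrontal cortex (mPFC) of 4 control and 5 CUS mice at postnatal day 90, taken with a punch over the midline after behavioral testing. Single nuclei (sNucDrop-seq) came from neocortex of 4 other control and 4 other CUS mice at postnatal day 80, a day after the last stressor.

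Bulk depth was 26188825 to 30525015 reads on genes per mouse. The nuclei gave 4699542 to 12477099 unique molecular identifiers (UMIs) per mouse over 1935 to 4235 nuclei, with a median of 2010 UMIs a nucleus, so that genes of low level are seen in few nuclei. Of 31486 barcodes of nuclei that passed the limits on genes and mitochondrial UMIs, 4788 (15.2%) were removed by a doublet score, which left 26698. Among these, 20 barcode sequences were found in more than 1 library (41 nuclei). Replicates of a group differed by more than counting error, and no pair of libraries looked like a single library. In bulk, control replicate 4 stood apart in striatal genes. Among the nuclei, CUS replicate 2 stood apart in Pde10a.

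In mm10, as the bulk files give them, Drd1 is at chr13:54051183-54055705 on the minus strand, Drd2 at chr9:49340627-49408177 on the plus strand and Adora2a at chr10:75316877-75334784 on the plus strand. Ppp1r1b is at chr11:98348404-98357796 (plus), Pde10a at chr17:8525372-8986648 (plus), Rgs9 at chr11:109225355-109298129 (minus) and Adcy5 at chr16:35154877-35305738 (plus). The peptide genes Penk and Tac1 are at chr4:4133531-4138819 (minus) and chr6:7554879-7565834 (plus). Penk overlaps A830012C17Rik on the opposite strand, which held 17 to 76 reads per mouse. The other overlaps, with 1700003D09Rik, Gm17087 and Gm25179, held 0 to 3 reads per mouse.

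A promoter sequence was given by RefSeq (GRCm38.p6) for 6 of the 9 genes: Drd1, Drd2, Pde10a, Rgs9, Adcy5 and Tac1. In the 250 bases before each start, the half-site of the cyclic AMP response element was searched on both strands, as TGACG and CGTCA, since these genes act on or through cyclic AMP. Of 32851 promoters of that length, 17.8% held it. Tac1 held 2 matches, 1 of them in the bases shown, and the other 5 genes held none. For Pde10a the nearest start given lay 276373 bases inside the gene as the bulk files annotate it. The bases before its annotated start were therefore not searched. A match is a description of letters and says nothing of binding. The bases that lie outside the gene as the bulk files annotate it are shown for the direct-pathway pair Drd1 (chr13:54055706-54055908, minus strand) and Tac1 (chr6:7554811-7554878, plus strand) and for the indirect-pathway receptor Drd2 (chr9:49340153-49340402, plus strand). Capitals mark the half-site.
Drd1: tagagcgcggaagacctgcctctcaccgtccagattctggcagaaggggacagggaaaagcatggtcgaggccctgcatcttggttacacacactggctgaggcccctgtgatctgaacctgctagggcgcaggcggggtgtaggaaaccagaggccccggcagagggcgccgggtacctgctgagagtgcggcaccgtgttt
Tac1: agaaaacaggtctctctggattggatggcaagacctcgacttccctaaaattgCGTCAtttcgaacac
Drd2: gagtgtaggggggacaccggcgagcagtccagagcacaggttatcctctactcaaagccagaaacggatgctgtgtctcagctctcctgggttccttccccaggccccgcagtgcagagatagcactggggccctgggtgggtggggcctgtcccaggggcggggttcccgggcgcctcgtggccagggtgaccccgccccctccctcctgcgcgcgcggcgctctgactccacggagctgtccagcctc

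Clusters of nuclei were made without the 9 genes among the variable genes, and were named from other markers. A total of 2089 nuclei (7.82%) fell in striatal-like clusters. The larger, led by Sh3rf2, held 1788 nuclei with 9 of 11 striatal projection neuron markers enriched at least 1.5-fold. The smaller, led by Pbx3, held 301 nuclei with 7 of the 11. Cortical excitatory-like nuclei numbered 17263, cortical inhibitory-like nuclei 2802, claustrum-like nuclei 381 and non-neuronal nuclei 2645. Another 1518 nuclei stayed unnamed, among them 61 in a cluster led by Drd3, which had 3 of the 11 striatal markers.

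Pooled over the 8 mice, RNA of 8 of the 9 genes came mostly from striatal-like nuclei, although these were 7.82% of all nuclei. Striatal-like nuclei held 89.5% of the UMIs of Adora2a, 81.7% of those of Drd2 and 73.9% of those of Rgs9. They held 69.8% for Penk, 60.8% for Drd1, 58.4% for Ppp1r1b, 58.2% for Adcy5 and 57.4% for Tac1. Pde10a was the exception, with 31.1% in striatal-like and 56.8% in cortical excitatory-like nuclei. For Tac1, a further 20.6% lay in cortical inhibitory-like nuclei. Without the doublet filter the striatal shares were lower, at 80.8% for Adora2a, 73.8% for Drd2, 65.2% for Rgs9, 62.0% for Penk, 55.2% for Drd1 and for Tac1, 51.9% for Ppp1r1b, 51.8% for Adcy5 and 28.3% for Pde10a. The clusters and these levels come from the same nuclei, so the levels by class are described and not tested.

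**Figure D1:**
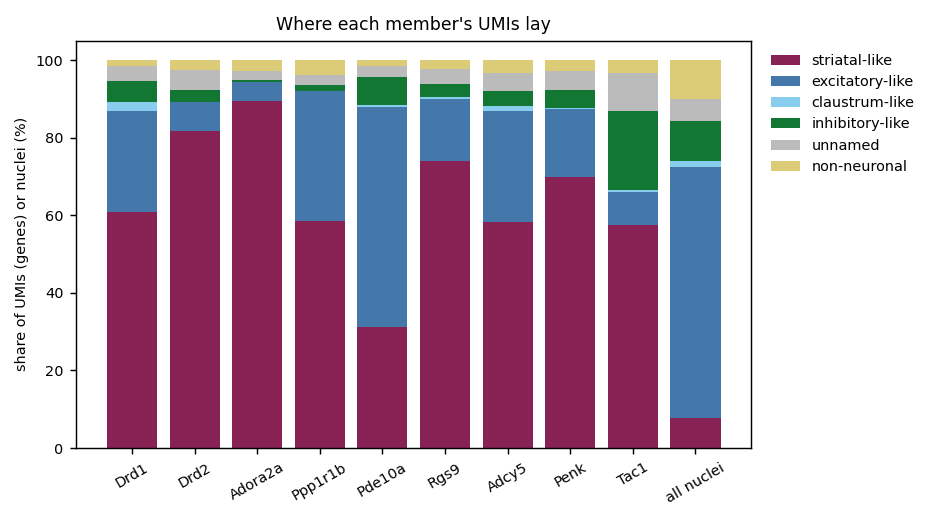
Share of each gene's UMIs, in percent, held by the classes of nuclei, pooled over 8 mice, with the share of all nuclei in the last bar. Striatal-like nuclei are 7.82% of nuclei and hold 57.4% to 89.5% of the UMIs of every gene but Pde10a, for which they hold 31.1%.

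These shares varied between mice. For Drd1 the striatal share of UMIs was 64.6% ± 2.90 (SD, n = 4) in control and 55.2% ± 17.0 (SD, n = 4) in CUS mice. For Pde10a it was 39.6% ± 3.81 in control and 21.5% ± 7.52 in CUS mice. The lowest share of Drd1, 36.9%, and the lowest share of Pde10a, 13.1%, were both in CUS replicate 4, the mouse with the fewest striatal-like nuclei. For Ppp1r1b it was 59.0% to 67.7% in control mice and 43.5%, 65.2%, 48.9% and 40.6% in CUS mice, and for Adcy5 61.5% to 73.7% and 43.9%, 66.8%, 48.1% and 36.2%, so that in 3 CUS mice most of the UMIs of these genes lay outside striatal-like nuclei. For Tac1 it was 35.9% in CUS replicate 4. For Adora2a the share was 87.97% ± 3.68 in control and 92.7% ± 6.49 in CUS mice.

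Levels by class are given as CPM (a gene's UMIs scaled to the total UMIs of the class in a mouse), as mean ± SD over 8 mice. The D1 receptor gene Drd1 was at 196 ± 37.3 CPM in Sh3rf2-led and 156 ± 55.3 CPM in Pbx3-led striatal-like nuclei. The Drd3-led cluster, at 162 ± 157 CPM, did not differ from either beyond its spread. All other classes were at 41.6 CPM or less. Drd1 UMIs were found in 26.6% of striatal-like nuclei (95% Wilson interval 24.7% to 28.5%) at a median of 1907 UMIs a nucleus. In non-neuronal nuclei, where the gene should be absent, the share was 0.756% at a median of 1205 UMIs. Among these, the 249 microglia-like nuclei had the excitatory marker Slc17a7 in 20.1% and Gad1 or Gad2 in 18.5%. The non-neuronal share, for this and the other genes, is therefore not a background free of neuronal RNA. Intervals given here and below cover counting error only.

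Outside the striatal-like clusters, 500 nuclei had a Drd1 UMI, and 332 of them were cortical excitatory-like. The most, 72, lay in the excitatory cluster led by Galnt14 and Sulf1 (19.1 CPM, 5.003% of its nuclei). The excitatory cluster led by Ctgf and Rai14 had a Drd1 UMI in 11.1% of its 585 nuclei and a level of 40.3 CPM. Of its leading genes, Ctgf was on the layer 6b marker list and Nr4a2 on the claustrum list, and it reached neither name. The Chodl- and Npy-led cluster, at 41.6 ± 62.4 CPM with 5 of 57 nuclei, varied too much between mice to be placed. Claustrum-like nuclei had one in 7.87% and were at 24.6 CPM, and the excitatory cluster led by Tshz2 and Vwc2l in 4.19% at 21.5 CPM. Ex_L6-like nuclei were at 11.3 CPM with 2.403%. In Ex_L2/3-like nuclei the share was 0.597%, at or below that of non-neuronal nuclei. Nuclei of at least 1000 UMIs were also thinned to 1000 UMIs each, and smaller nuclei were left out of all thinned shares. After thinning, the Ctgf- and Rai14-led cluster kept the highest cortical excitatory share of those named here, at 4.11%, against 0.621% in non-neuronal nuclei.

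Drd2, the D2 receptor gene, was found at 109 ± 15.8 CPM in Sh3rf2-led nuclei and at 2.86 CPM in Pbx3-led nuclei. The next class in order, OPC-like nuclei (oligodendrocyte precursors), was at 9.01 ± 10.7 CPM. The share of nuclei with a UMI was 16.8% in Sh3rf2-led nuclei against 0.332% in Pbx3-led nuclei. It was 0.220% in cortical excitatory-like and 0.464% in inhibitory-like nuclei, both at or below the 0.491% of non-neuronal nuclei (95% Wilson interval 0.287% to 0.839%). Microglia-like nuclei, which are counted in that non-neuronal share, had a Drd2 UMI in 2.01%. The share may thus overstate the background, and inhibitory-like nuclei cannot be placed against it. Of single clusters, the unnamed one led by C130073E24Rik and Rmst had Drd2 in 8 of 827 nuclei (0.967%, interval 0.491% to 1.897%), the Vip- and Tac2-led inhibitory cluster in 3 of 521 (0.576%) and the Chodl- and Npy-led cluster in 1 of 57, with intervals that overlap that of non-neuronal nuclei.

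The A2a receptor gene Adora2a was also highest in Sh3rf2-led nuclei, at 63.4 ± 8.04 CPM. Microglia-like nuclei (11.1 ± 22.4 CPM, 4 nuclei with a UMI), the Chodl- and Npy-led cluster (7.92 ± 21.0 CPM, 1 nucleus) and Pbx3-led nuclei (3.20 ± 9.04 CPM, 1 nucleus) came next, and did not differ beyond their spread. A UMI was found in 11.5% of Sh3rf2-led nuclei, 0.0811% of cortical excitatory-like nuclei and 0.265% of non-neuronal nuclei. The ratio of the striatal-like level to that of all other nuclei was 122 for Adora2a, the largest of the 9 genes, and 62.1 for Drd2 and 21.7 for Drd1.

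Ppp1r1b, the DARPP-32 gene, was at 440 ± 75.8 CPM in Sh3rf2-led and 119 ± 49.0 CPM in Pbx3-led nuclei. Among cortical neurons its highest share was in the Fyb2- and Ntng1-led excitatory cluster, at 11.9% of nuclei, and in Ex_L6-like nuclei, at 9.02%. Non-neuronal nuclei had 4.12%. After thinning, these shares were 2.29%, 3.99% and 3.47%, so that neither cortical class was clearly above non-neuronal nuclei at equal depth. In cortical inhibitory-like nuclei the share was 1.57%. By level, cortical excitatory-like nuclei were at 18.6 to 30.5 CPM over the 8 mice and inhibitory-like nuclei at 0.893 to 13.4 CPM. Non-neuronal nuclei spread from 9.31 to 45.8 CPM, so they do not set a clear floor for this gene.

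Pde10a was expressed throughout the neurons of the dissection. Its level was 2327 ± 256 CPM in Sh3rf2-led nuclei, 925 ± 234 CPM in Pbx3-led nuclei, 395 ± 93.3 CPM in cortical excitatory-like and 383 ± 50.7 CPM in cortical inhibitory-like nuclei. The excitatory and inhibitory levels did not differ beyond their spread. Non-neuronal nuclei were at 140 ± 25.9 CPM, below both. A Pde10a UMI was found in 88.9% of striatal-like, 53.4% of excitatory-like, 48.8% of inhibitory-like and 13.1% of non-neuronal nuclei, and the order was kept after thinning, except that inhibitory-like nuclei (29.9%) came level with excitatory-like nuclei (29.7%). The striatal level was 5.84 times that of the other nuclei, the smallest ratio of the 9 genes.

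Rgs9, the regulator of G protein signalling, was at 1666 ± 136 CPM in Sh3rf2-led nuclei, 1390 ± 475 CPM in the Drd3-led cluster and 615 ± 95.02 CPM in Pbx3-led nuclei. The first 2 of these did not differ beyond the spread of the second. Microglia-like nuclei followed at 193 ± 194 CPM, a spread as wide as the level, and then an unnamed cluster of 57 nuclei led by Chodl and Npy, at 136 ± 77.6 CPM with Rgs9 in 28.1% of nuclei. Inh_Sst-like interneurons were at 135 ± 35.5 CPM, within the spread of both, with 22.3% of nuclei, and 13.2% after thinning against 3.62% in all non-neuronal nuclei. Cortical excitatory-like nuclei as a whole, at 3.27% after thinning, were not above that background. Adcy5, the cyclase, was at 444 ± 75.0 CPM in Sh3rf2-led nuclei. It was at 18.7 ± 3.89 CPM in excitatory-like, 19.2 ± 3.13 CPM in inhibitory-like and 26.8 ± 11.01 CPM in non-neuronal nuclei, which did not differ beyond their spread. Of the non-neuronal nuclei, the oligodendrocyte-like class was higher, at 53.1 ± 13.5 CPM with Adcy5 in 6.39% of nuclei.

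The peptide genes were found in cortical interneurons as well. Penk, the enkephalin precursor, was at 1683 ± 512 CPM in Sh3rf2-led and 875 ± 292 CPM in Pbx3-led nuclei. The Vip- and Tac2-led inhibitory cluster followed, at 261 ± 77.5 CPM with Penk in 26.3% of nuclei, and 20.3% after thinning, against 5.67% and 4.81% in non-neuronal nuclei. Microglia-like nuclei, at 247 ± 256 CPM, had it in 11.6% and varied too much between mice to be placed. Tac1, the substance P precursor, was highest not in striatal-like nuclei but in the Drd3-led cluster, at 2267 ± 967 CPM with 83.6% of 61 nuclei. Sh3rf2-led nuclei followed at 551 ± 165 CPM and Pbx3-led nuclei at 422 ± 158 CPM, within each other's spread. Inh_Pv-like interneurons were at 290 CPM, with Tac1 in 30.6% of nuclei and in 20.5% after thinning, against 2.64% in non-neuronal nuclei.

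**Figure D2:**
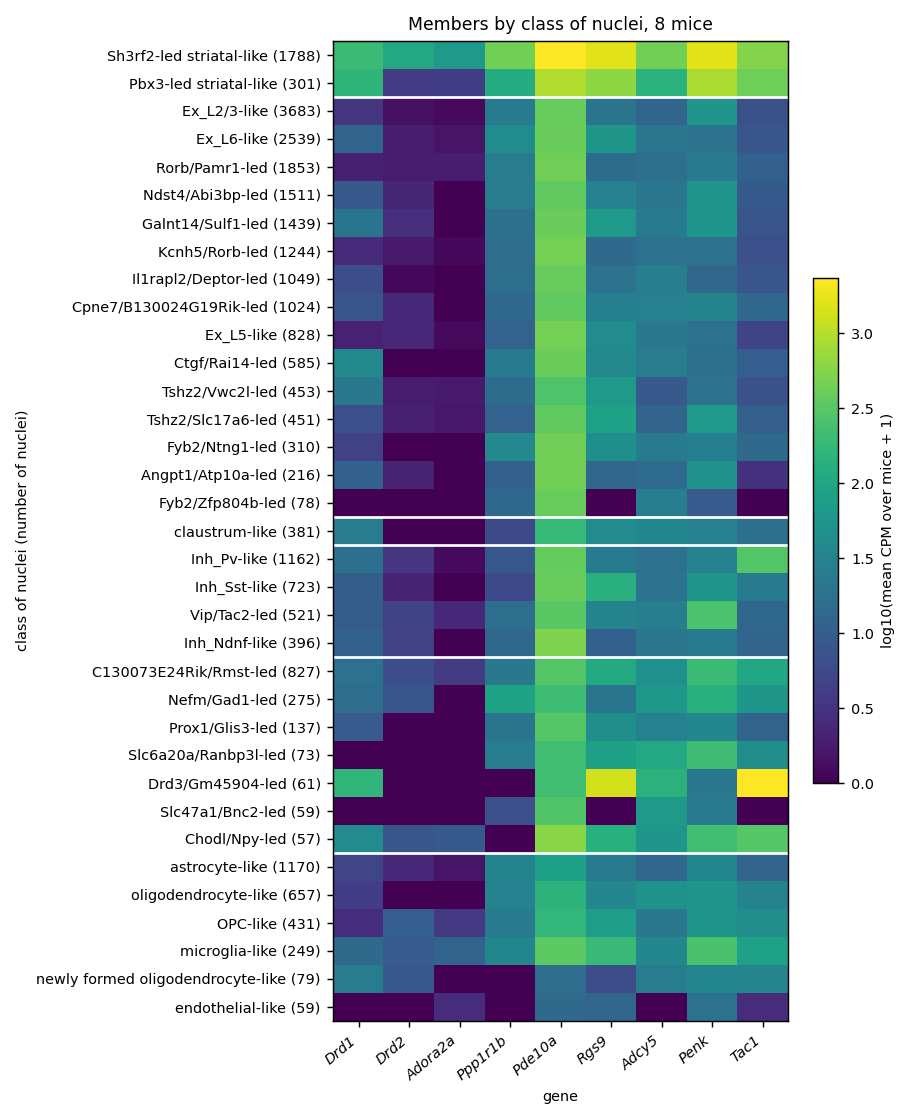
Level of each of the 9 genes (columns) in 35 classes of nuclei (rows, with the number of nuclei), as log10 of the mean CPM over 8 mice plus 1, with white lines between groups of classes. The striatal-like rows at the top are bright for every gene in the Sh3rf2-led class, the Pbx3-led class is dark for Drd2 and Adora2a, and Pde10a is bright across all rows of neurons.

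Within Sh3rf2-led nuclei, the receptor genes of the direct and indirect pathways were seldom found together. Of 485 nuclei with a Drd1 UMI, 8 also had a Drd2 UMI, where 81.4 such nuclei would be counted if the genes were spread independently over the cluster. A Drd2 UMI was found in 1.65% of nuclei with Drd1 and in 22.4% of nuclei without it. Adora2a went with Drd2, in 35.0% of the 300 nuclei with a Drd2 UMI and 6.79% of those without. Penk was found in 94.0% of nuclei with Drd2 and 36.4% of those without, and Tac1 in 69.9% of nuclei with Drd1 and 33.2% of those without. Ppp1r1b, Pde10a, Rgs9 and Adcy5 were found on both sides: Rgs9 in 92.8% of nuclei with Drd1 and 94.7% of those with Drd2, and Adcy5 in 62.1% and 66.3%.

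Sub-clusters of these nuclei, made without the 9 genes at a setting chosen after the data were seen and named from separate direct- and indirect-pathway markers, showed the same division. A direct-pathway-like sub-cluster of 234 nuclei, with Isl1, Pdyn and Slc35d3 enriched, had Drd1 in 43.6%, Tac1 in 83.3%, Penk in 17.5% and Drd2 in 0.855%. The indirect-pathway-like sub-clusters, of 485 nuclei in all, had Drd2 in 43.7%, Adora2a in 30.1%, Penk in 92.4%, Drd1 in 5.36% and Tac1 in 7.63%. The Penk level was 4017 ± 956 CPM (SD, n = 8) in indirect-pathway-like and 260 ± 217 CPM in direct-pathway-like nuclei, and the Tac1 level was 96.9 ± 87.0 CPM and 1045 ± 268 CPM. Pde10a was found in 96.7% and 97.9% and Rgs9 in 95.1% and 92.3% of these nuclei. The other 1069 nuclei reached neither name. They had Drd1 in 33.4% and Drd2 in 8.04%. CUS replicate 4 gave only 2 of the direct-pathway-like nuclei, so levels were not compared between conditions in the sub-clusters.

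**Figure D3:**
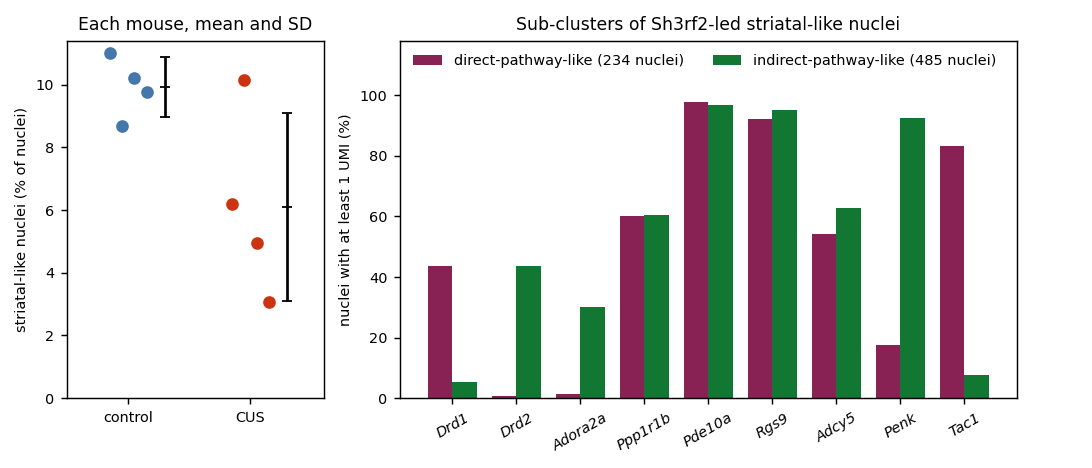
Left, striatal-like nuclei as a percent of all nuclei, 1 point per mouse, with mean and SD: controls lie between 8.69% and 11.002%, CUS mice between 3.07% and 10.1%. Right, percent of direct-pathway-like (234) and indirect-pathway-like (485) nuclei with at least 1 UMI of each gene: Drd1 and Tac1 are higher in the first, Drd2, Adora2a and Penk in the second, and the other genes are closer.

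Over the 35 classes, the level of Adora2a was most like that of Drd2 among the 9 genes (Pearson's r of log2(CPM + 1) = 0.72), and that of Tac1 most like that of Rgs9 (0.79). Pde10a and Tac1 were far apart (0.13), as were Ppp1r1b and Tac1 (0.03). Among 21971 genes, with the 9 genes themselves left out of the ranking, the 3 most like Drd1 were Gnal (0.77), which encodes the stimulatory G protein subunit of striatal neurons, Zmym2 (0.74) and Mhrt (0.71). For Drd2 they were Scube3 (0.70), Gm36737 (0.70) and Cacng4 (0.69), and for Adora2a Gm36737 (0.76), Ptprv (0.70) and A730018C14Rik (0.68), so that the pair shared a leading gene. Those most like Ppp1r1b were Nme5 (0.77), Cryz (0.75) and Inf2 (0.74), those most like Pde10a Sh2d5 (0.88), Actl6b (0.83) and Fgf14 (0.82), and those most like Adcy5 Gmppa (0.75), Smg5 (0.74) and A230072E10Rik (0.72). Outside the 9 genes, Rgs9 was closest to Syt6 (0.76), Gnal (0.75) and Bcl11b (0.75), a transcription factor of striatal projection neurons. Penk was closest to Six3 (0.76), Ptpn7 (0.71) and its overlapping antisense partner A830012C17Rik (0.71), and Tac1 to Gad1os (0.77), Sox1ot (0.75) and Syt6 (0.75). The classes share libraries and differ in depth and size, so these values are descriptions only.

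In bulk mPFC, the comparison of CUS with control mice asked how chronic stress changed nuclear RNA. Pde10a was higher in CUS mice, and it was the only 1 of the 9 genes past the threshold. Of 18394 genes tested, 606 (3.29%) were called at a false discovery rate (FDR) of 0.05 by the quasi-likelihood test of edgeR after Benjamini-Hochberg adjustment, 392 lower (2.13%) and 214 higher (1.16%) in CUS mice. The other 8 genes had lower fitted values in CUS mice, as did 48.7% of all genes, and did not pass in this test. By edgeR's likelihood ratio test 2 of them were called as lower, among 796 genes called as lower, and by DESeq2 1, among 856. Bulk RNA cannot tell fewer nuclei of a type from less RNA per nucleus. Bulk levels below are CPM after scaling by TMM factors, and they are not per gene length, so genes are not compared with each other.

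Pde10a was at 603, 715, 945 and 851 CPM in control mice. It was at 1338, 1089, 1225, 1158 and 1127 CPM in CUS mice. Mice are given here and below in the order of their replicate numbers. Every CUS mouse was above every control mouse, as for 4.06% of genes. On the log2 scale the groups differed by 0.61 ± 0.11 (SE, FDR = 0.0161), which ranged from 0.50 to 0.71 as each mouse was left out. Without control replicate 2 the call was lost (FDR = 0.0595), and 133 genes in all were then called. The summed CPM of 5 cortical excitatory markers moved the same way, from 977 (control replicate 4) to 1269 in control and from 1248 to 1325 in CUS mice. The sums of 2 glial lists were lower in every CUS mouse than in every control mouse. Markers of newly formed oligodendrocytes summed to 81.3 to 85.7 CPM in control and 65.6 to 76.0 in CUS mice, and those of OPCs (oligodendrocyte precursors) to 93.7 to 108 and 83.4 to 92.6. The other glial lists overlapped between the groups, with sums of 255 to 585 and 277 to 339 for oligodendrocyte, 1346 to 1722 and 1281 to 1521 for astrocyte and 122 to 133 and 117 to 137 for microglia markers. Of 6 astrocyte markers 5 had lower and 1 a higher fitted value, and 3 were called as lower, where 2.13% of all genes were. All 6 oligodendrocyte and all 3 newly formed oligodendrocyte markers had lower fitted values, with 1 called in each list, and all 5 cortical excitatory markers had higher ones, with 1 called. All 4 OPC markers had lower fitted values, with 0 called. Of all genes, 48.7% had lower fitted values and 1.16% were called as higher. No marker of these lists was at 0 in any mouse, and their part in the Pde10a result was not tested.

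The receptor genes were dominated by a single control mouse. Drd1 was at 5.66, 6.81, 8.11 and 19.7 CPM in control and at 5.33, 7.18, 7.00, 6.99 and 7.75 CPM in CUS mice. Control replicate 4 alone was above the range of the CUS mice by more than 1 CPM. Its log2 difference was -0.56 ± 0.30 (SE, FDR = 0.293), and 0.01 without that mouse.

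Drd2 was at 2.38, 1.79, 4.15 and 19.0 CPM in control mice. It was at 1.53, 1.18, 1.31, 1.79 and 2.24 CPM in CUS mice. The groups overlapped through control replicate 2, and control replicate 4 was 4.59 times the next mouse. For Drd2 the log2 difference was -2.09 ± 0.59 (SE, FDR = 0.0687), and -0.76 without control replicate 4. It passed the threshold when control replicate 1 (FDR = 0.0402) or control replicate 3 (FDR = 0.0411) was left out with replicate 4 kept, when 3.38% and 8.1% of all genes were called.

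Adora2a was at 2.04, 1.72, 1.91 and 6.64 CPM in control and at 2.28, 1.81, 1.55, 2.48 and 2.07 CPM in CUS mice. Apart from control replicate 4, the mice of both groups covered the same range. Their log2 difference was -0.60 ± 0.36 (SE, FDR = 0.360), and 0.12 without that mouse.

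The signalling genes other than Pde10a had the same high mouse. Ppp1r1b was at 4.83, 6.20, 11.4 and 24.3 CPM in control and at 6.15, 5.52, 6.50, 6.36 and 7.197 CPM in CUS mice, with overlapping groups and a log2 difference of -0.88 ± 0.36 (SE, FDR = 0.177). Rgs9 was at 25.1, 30.6, 36.2 and 92.3 CPM in control and at 18.1, 27.5, 26.5, 29.9 and 33.0 CPM in CUS mice, a log2 difference of -0.77 ± 0.31 (SE, FDR = 0.177). Adcy5 was at 78.0, 90.8, 133 and 151 CPM in control and at 102, 90.5, 97.5, 87.9 and 91.9 CPM in CUS mice, a log2 difference of -0.27 ± 0.15 (SE, FDR = 0.340). For Adcy5, control replicate 3 was nearly as high as control replicate 4. Without control replicate 4 the log2 differences were -0.22 for Ppp1r1b, -0.17 for Rgs9 and -0.09 for Adcy5.

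Both peptide genes were again highest in control replicate 4, and the other mice of the groups overlapped. Penk was at 4.49, 4.96, 3.59 and 16.02 CPM in control and at 3.34, 4.10, 2.73, 2.78 and 2.51 CPM in CUS mice, a log2 difference of -1.25 ± 0.38 (SE, FDR = 0.0841). It passed the threshold without control replicate 3 (FDR = 0.0253) and was at -0.49 without control replicate 4. Tac1 was at 1.81, 2.22, 2.39 and 11.2 CPM in control and at 2.45, 2.76, 2.22, 2.02 and 2.45 CPM in CUS mice, a log2 difference of -0.90 ± 0.46 (SE, FDR = 0.273). Without control replicate 4 it was 0.16.

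Control replicate 4 held the highest value for 8 of the 9 genes, Pde10a being the exception. It was also the highest mouse for 11 of 11 striatal projection neuron markers, 5 of 6 direct-pathway markers, 2 of 5 indirect-pathway markers found and 22.4% of all genes. The summed CPM of the 11 striatal projection neuron markers was 142, 149, 171 and 354 in control mice and 130 to 140 in CUS mice. Every CUS mouse was thus below every control mouse in this sum. Of these markers 9 were tested, and all 9 had lower fitted values in CUS mice, as did 48.7% of all genes. Among them 1 was called as lower, as were 2.13% of all genes. At most 1 of the 11 was at 0 in a mouse. The summed CPM of the indirect-pathway markers was lowest in control replicate 4, at 516. It was 575 to 684 in the other control mice and 641 to 711 in the CUS mice. Of the 5 found, 2 passed the filter on low counts in cortical excitatory-like nuclei, so this sum is not from striatal nuclei alone. The sum of the direct-pathway markers was 155 in control replicate 4 and highest, at 172, in control replicate 1. Lists of other cells also stood apart in control replicate 4. Choroid plexus markers summed to 4.01 CPM beside 0.331 to 1.62 in the other mice and Ex_L6b markers to 12.4 beside 5.47 to 9.23. OPC markers were highest there as well, at 108. Markers of Ex_L2/3 (364), cortical excitatory (977), Ex_L5/6 (375), Ex_L5 (112) and claustrum (178) nuclei were lowest there. So were those of Inh_Pv (74.3, beside 75.5 in control replicate 2) and Inh_Sst nuclei (97.7, beside 102 in control replicate 2). The median log2 difference of the 9 genes was -0.77, and -0.09 without control replicate 4, when Pde10a was again the only gene called (2.74% of all genes). Over all genes the median was 0.01. The part of striatal or other tissue in these differences was not tested.

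**Figure D4:**
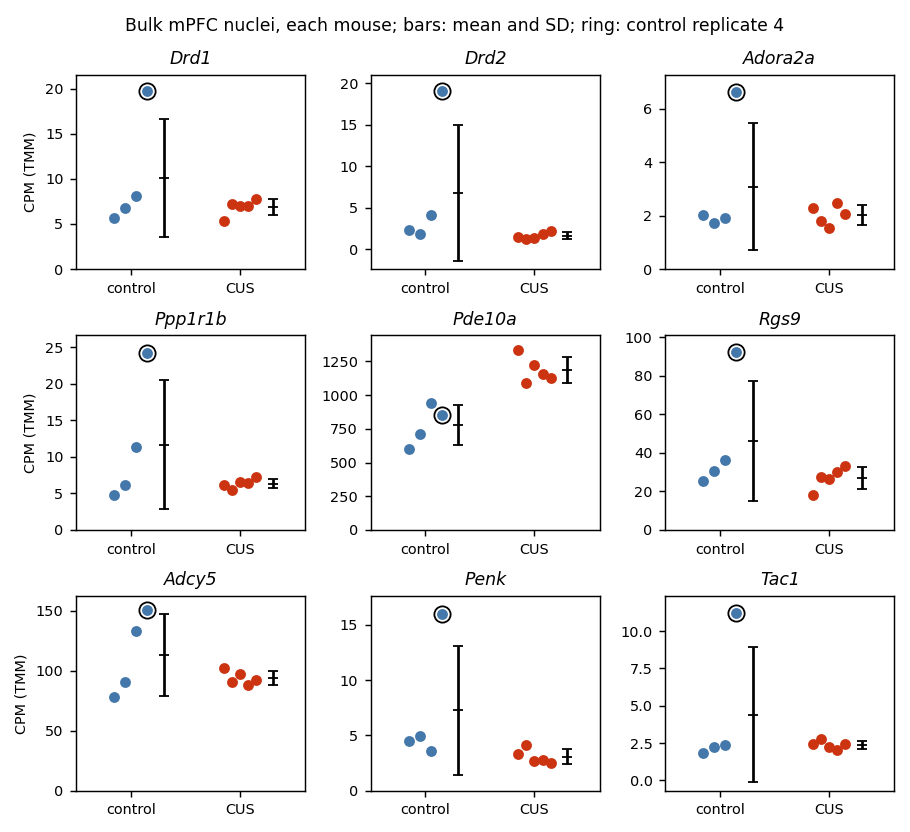
Bulk level of each of the 9 genes in CPM after TMM scaling, 1 point per mouse (4 control, 5 CUS), with mean and SD beside each group and a ring around control replicate 4. The ringed mouse is the highest for every gene but Pde10a, for which all 5 CUS mice (1089 to 1338 CPM) lie above all 4 control mice (603 to 945 CPM).

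Among other genes of the pathway in bulk, 8 of 10 genes of dopamine synthesis, breakdown and other dopamine receptors were tested, and 1 was called, where 3.29% of all genes were. This was Drd3, the D3 receptor gene, at 1.74 ± 1.80 (SD, n = 4) CPM in control and 0.349 ± 0.169 (SD, n = 5) CPM in CUS mice, with a log2 difference of -2.34 ± 0.59 (SE, FDR = 0.0486). Of 23 genes of G proteins, cyclic AMP, kinases and phosphatases, all were tested and 1 was called, a share near that of all genes, namely Ptpn5, the striatal-enriched phosphatase. It was higher, by a log2 difference of 0.35 ± 0.08 (SE, FDR = 0.0369). The Drd3 call was lost without control replicate 2 or 4 or any of the 5 CUS mice (FDR = 0.0640 to 0.127), and its log2 difference was -1.27 without control replicate 4. The Ptpn5 call was lost without control replicate 1, 2 or 4 or CUS replicate 1, 3, 4 or 5 (FDR = 0.0549 to 0.105). Of 12 further receptor and peptide genes 10 were tested, and none was called.

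Among the nuclei, fewer striatal-like nuclei were recovered from 3 of the 4 CUS mice. The 8 mice came from 2 batches that held both groups, and the comparisons below carry no batch term, since the batch of each mouse was not known. Their share of nuclei was 11.002%, 8.69%, 10.2% and 9.77% in the control mice and 6.21%, 10.1%, 4.93% and 3.07% in the CUS mice, in the order of their replicate numbers. CUS replicate 2 lay within the control range, and the other 3 CUS mice lay below it. The means were 9.92% ± 0.968 (SD, n = 4) and 6.09% ± 2.99 (SD, n = 4), a difference of -3.83 percentage points (two-sided exact permutation p = 0.0857). With 4 mice against 4 the p cannot go below 0.0286, which was reached when nuclei needed 1000 genes (a difference of -4.23 percentage points). The p was 0.114 without the doublet filter and with the 9 genes among the variable genes. With a mouse left out the difference ranged from -5.18 points without CUS replicate 2 to -2.82 points without CUS replicate 4.

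With all nuclei of a mouse summed, 8 of the 9 genes had lower means in CUS mice (51.1% of all genes had lower fitted values), and none passed the FDR of 0.2 used for the nuclei. Of 5018 genes tested, 1 (0.0199%) was called by edgeR's quasi-likelihood test, with 402 below 0.05 before adjustment. DESeq2 called 22 and edgeR's likelihood ratio test 17. Without the filter on low counts 7 of the 9 genes were called, all as lower, where 309 of 36464 genes were called and 96 of these were lower. The filter on low counts kept 6 of the 9 genes. Of these, Rgs9 was at 235, 179, 199 and 216 CPM in control and at 140, 250, 110 and 79.9 CPM in CUS mice. CUS replicate 2 was the highest of all and the other 3 CUS mice were the lowest. The log2 difference of Rgs9 was -0.53 ± 0.26 (SE, FDR = 0.596), which ranged from -0.90 without CUS replicate 2 (FDR = 0.0529) to -0.32 without CUS replicate 4 (FDR = 0.783).

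Penk (-0.44 ± 0.13), Adcy5 (-0.50 ± 0.16), Ppp1r1b (-0.42 ± 0.14) and Tac1 (-0.45 ± 0.18, log2 differences ± SE) had the same FDR of 0.596. Without CUS replicate 4 the log2 difference of Tac1 was -0.26. CUS replicate 4, with the fewest striatal-like nuclei, was the lowest mouse for each of these genes. Without CUS replicate 2, 5 of the genes were called as lower (Penk, Adcy5, Ppp1r1b, Rgs9 and Pde10a), where 331 of 5125 genes (6.46%) were called as lower and 828 (16.2%) in either direction. The summed CPM of 11 striatal markers in all nuclei was 378 to 436 in control and 235 to 441 in CUS mice.

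Pde10a in all nuclei was at 569, 549, 581 and 610 CPM in control and at 499, 922, 497 and 490 CPM in CUS mice. CUS replicate 2 was far above all others, and the other 3 CUS mice were below every control mouse. This gave a log2 difference of 0.06 ± 0.18 (SE, FDR = 0.923), and -0.21 without CUS replicate 2 (FDR = 0.183). Drd1, Drd2 and Adora2a did not pass the filter. Their means were 27.1 ± 3.03 and 23.1 ± 6.33 CPM for Drd1, 11.8 ± 1.55 and 7.30 ± 3.26 CPM for Drd2, and 6.59 ± 0.654 and 3.72 ± 1.78 CPM for Adora2a (control and CUS, SD, n = 4 each).

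Within striatal-like nuclei, the sums per mouse of the 9 genes were all tested and none was called. Of 4373 genes in all, edgeR's quasi-likelihood test called 0 at an FDR of 0.2, and 228 were below 0.05 before adjustment. DESeq2 called 0 and edgeR's likelihood ratio test 2. The median log2 difference of the 9 genes was 0.02, beside -0.003 over all genes tested. In this class CPM values are TMM-scaled and so differ from the levels by class above.

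None of the receptor genes passed. Drd1 was at 153, 211, 219 and 231 CPM in control and at 279, 256, 240 and 227 CPM in CUS mice. The groups overlapped only through control replicate 4 and CUS replicate 4, and the log2 difference was 0.31 ± 0.16 (SE, FDR = 0.932). Drd2 was at 117.5, 124, 88.5 and 131 CPM in control and at 101.2, 110.5, 108 and 136 CPM in CUS mice. Its log2 difference was -0.003 ± 0.19 (SE, FDR = 0.998). For Adora2a, the means were 66.8 ± 5.83 and 66.3 ± 4.75 CPM (SD, n = 4 each), a log2 difference of -0.02 ± 0.21 (SE, FDR = 0.990).

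Of the signalling genes, Pde10a was at 2684, 2553, 2627 and 2638 CPM in control and at 1901, 3279, 2464 and 2510 CPM in CUS mice. CUS replicate 2 was the highest, and the other 3 CUS mice were below every control mouse. The log2 difference was -0.05 ± 0.17 (SE, FDR = 0.990), and -0.20 without CUS replicate 2. Rgs9 was at 1979, 1654, 1729 and 1970 CPM in control and at 1726, 2304, 1673 and 1690 CPM in CUS mice, with overlapping groups and a log2 difference of 0.02 ± 0.16 (SE, FDR = 0.994). For Ppp1r1b the log2 difference was 0.04 ± 0.15 (SE, FDR = 0.990) and for Adcy5 -0.09 ± 0.16 (SE, FDR = 0.979).

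The peptide genes varied more among CUS than among control mice. So did the direct-pathway-like and the indirect-pathway-like share of the Sh3rf2-led nuclei. Direct-pathway-like nuclei were 11.7% to 16.1% in control mice and 14.9%, 9.02%, 24.2% and 1.94% in CUS mice. The last of these was 2 of 103 nuclei. Indirect-pathway-like nuclei were 20.6% to 27.8% and 29.2%, 31.0%, 18.8% and 36.9%. Most nuclei had neither name, 56.7% to 66.1% in control and 56.0% to 61.2% in CUS mice. These held 549 Drd1 UMIs, beside 180 in direct-pathway-like nuclei, so the named shares do not count all direct-pathway nuclei. The part of this make-up in the levels below was not tested. Penk was at 1719, 1586, 1772 and 1607 CPM in control and at 2371, 1309, 1841 and 2761 CPM in CUS mice. Here 3 CUS mice were above every control mouse and CUS replicate 2 was below them. Penk thus differed by 0.31 ± 0.18 on the log2 scale (SE, FDR = 0.933), and by 0.14 without CUS replicate 4 to 0.48 without CUS replicate 2 (FDR = 0.282). Tac1 was at 583, 552, 627 and 574 CPM in control and at 780, 475, 970 and 527 CPM in CUS mice, which lay on both sides of the controls, with a log2 difference of 0.23 ± 0.18 (SE, FDR = 0.933), which ranged from 0.02 without CUS replicate 3 to 0.38 without CUS replicate 2 (FDR = 0.381).

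In the nuclei other than striatal-like, 3 of the 9 genes passed the filter and none was called, where 1 of 5043 genes was (0.0198%). Of these 3 genes, 2 had lower and 1 a higher fitted value in CUS mice, where the median log2 difference of all genes tested was 0.002. The genes that did not pass the filter had few UMIs here, and no direction is read from them. In striatal-like nuclei, where all 9 were tested, 4 had lower and 5 higher fitted values. By edgeR's likelihood ratio test 13 genes were called, by DESeq2 25 and without CUS replicate 2 675, none of them among the 9. Pde10a was at 348, 373, 379 and 426 CPM in control and at 423, 689, 410 and 438 CPM in CUS mice. Control replicate 4 lay among the lower CUS mice, and CUS replicate 2 stood above all. The log2 difference was 0.36 ± 0.15 (SE, FDR = 0.609), and 0.15 without CUS replicate 2. Rgs9 differed by -0.24 ± 0.12 (SE, FDR = 0.609) and Penk by -0.19 ± 0.12 (SE, FDR = 0.620) on the log2 scale. The 11 striatal markers summed to 161 to 187 CPM in these nuclei in control and 155 to 176 CPM in CUS mice, against 2753 to 3129 and 2560 to 3194 CPM in striatal-like nuclei.

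In cortical excitatory-like nuclei only Pde10a and Penk were tested, and neither was among the 2 of 5314 genes called (0.0376%). By edgeR's likelihood ratio test 37 genes were called, by DESeq2 38 and without CUS replicate 2 727, neither gene among them. Pde10a was at 353, 384, 381 and 450 CPM in control and at 454, 738, 425 and 459 CPM in CUS mice. All CUS mice but replicate 3 were above all control mice, and CUS replicate 2 was well above the rest. The log2 difference was 0.40 ± 0.16 (SE, FDR = 0.504), and 0.19 without CUS replicate 2. Penk was at 43.3 ± 9.56 and 37.5 ± 7.23 CPM (SD, n = 4 each), a log2 difference of -0.23 ± 0.17 (SE, FDR = 0.608).

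Cortical inhibitory-like nuclei let 4 of the 9 genes be tested, and none was called of 4758 (0%), where 225 genes were below 0.05 before adjustment, edgeR's likelihood ratio test called 3 and DESeq2 called 0. Tac1 was at 139, 135, 194 and 226 CPM in control and at 209, 130, 141 and 156 CPM in CUS mice. The groups covered the same range, with a log2 difference of -0.09 ± 0.18 (SE, FDR = 0.974). Pde10a was at 439 ± 21.4 and 477 ± 105 CPM (SD, n = 4 each), and CUS replicate 2, at 633 CPM, was again the highest mouse. Its log2 difference was 0.11 ± 0.14 (SE, FDR = 0.953). Rgs9 differed by 0.30 ± 0.21 (SE, FDR = 0.920) and Penk by -0.07 ± 0.20 (SE, FDR = 0.974).

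**Figure D5:**
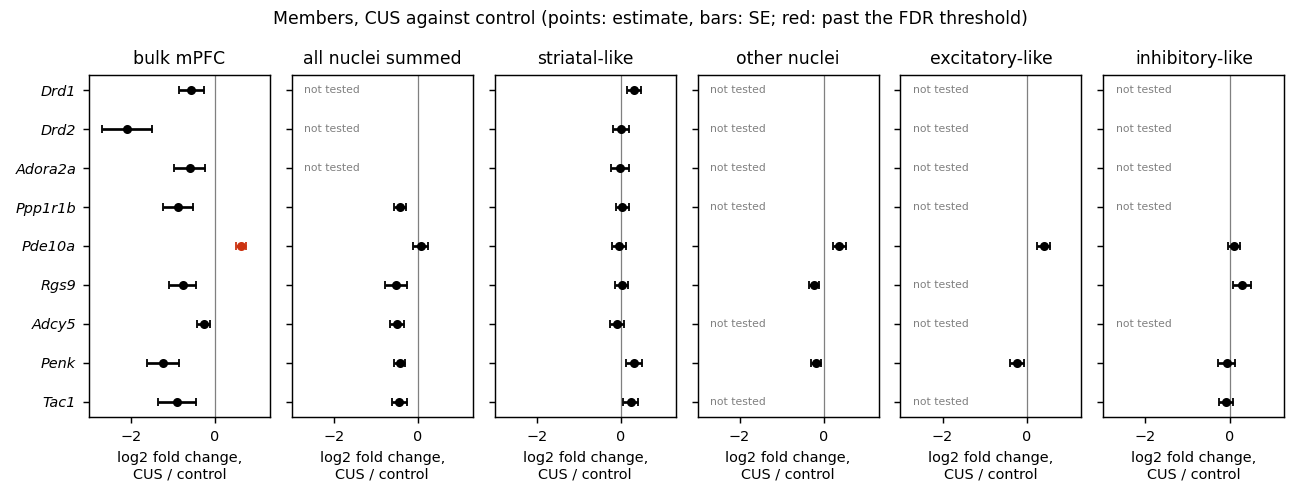
Log2 fold change (CUS over control, x axis) of each of the 9 genes in bulk mPFC and, where it passed the filter on low counts, in 5 sums of nuclei, with points for the estimate, bars for the SE and red for a gene past the FDR threshold (0.05 in bulk, 0.2 in nuclei). Only Pde10a in bulk, at 0.61, is red, and the values run from -0.09 to 0.31 in striatal-like nuclei and from -0.53 to 0.06 in all nuclei summed.

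Whether the CUS change differed between striatal-like and other nuclei of the same mice was tested directly, with the mouse as a block. Of 4073 genes in that test, which included Pde10a, Rgs9 and Penk, edgeR's quasi-likelihood test called none (0%), with 168 below 0.05 before adjustment, edgeR's likelihood ratio test called 1 and DESeq2 called 0. The CUS change of Pde10a was lower in striatal-like than in other nuclei by a log2 difference of -0.41 ± 0.10 (SE, edgeR FDR = 0.789). For Penk it was higher by 0.49 ± 0.14 (SE, edgeR FDR = 0.996), with 0.29 without CUS replicate 4, and for Rgs9 by 0.25 ± 0.10 (SE, FDR = 0.996). Without CUS replicate 3 Pde10a was called (-0.48, FDR = 0.0688, beside 0.0244% of all genes), and without CUS replicate 2 Penk was called (0.63, FDR = 0.0653, beside 0.0715%). No other mouse left out gave a call of these genes.

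Other genes of the pathway were not called in any sum of nuclei. In striatal-like nuclei 1 of 10, 20 of 23 and 7 of 12 genes of the 3 lists were tested. The smallest p belonged to Cdk5, the kinase that phosphorylates DARPP-32, at 70.5 ± 4.69 CPM in control and 88.3 ± 10.5 CPM in CUS mice (SD, n = 4 each), a log2 difference of 0.34 ± 0.20 (SE, FDR = 0.933). Next was Prkacb, a catalytic subunit of protein kinase A, with -0.24 ± 0.15 (SE, FDR = 0.933). In all nuclei summed, Gnal, the G protein subunit named above, differed by -0.34 ± 0.13 and Prkar2b, a regulatory subunit of protein kinase A, by -0.25 ± 0.10 (SE, FDR = 0.596 for both). In other and in excitatory-like nuclei the genes with the smallest p were Prkar2b, with -0.19 ± 0.10 and -0.22 ± 0.11, and Pde7b, a phosphodiesterase, with 0.20 ± 0.11 in each (SE, FDR = 0.609 and 0.609 in other nuclei, 0.534 and 0.542 in excitatory-like nuclei). In inhibitory-like nuclei they were Gnal, with -0.18 ± 0.13, and Prkar2a, with 0.26 ± 0.19 (SE, FDR = 0.920 for both).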

How the data were processed

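For bulk mPFC, the authors aligned stranded total RNA reads of nuclei to mm10 with STAR and deposited read counts per gene. Whether the counting used strand is not given in the sources used here. For neocortex nuclei, the authors deposited counts of UMIs per gene and barcode, over exons and introns. No count was changed before the tests. Barcodes had to show 600 to 5000 genes, less than 5% of UMIs from mitochondria and a Scrublet score (scanpy 1.11.5) not above 0.2. They were clustered in Seurat 5.3.0 (2000 variable genes without the 9 genes, 50 components, resolution 1). Clusters were named from markers enriched at least 1.5-fold. The authors took the mice of the nuclei from 2 batches, each with 2 control and 2 CUS mice, found a strong batch effect and fitted batch in their model. Which mice shared a batch is not given in the sources used here, so no batch term was fitted, and the spread between mice holds that between batches.

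CUS and control mice were compared with edgeR 4.0.16 (quasi-likelihood test, TMM factors, Benjamini-Hochberg adjustment) in R 4.3.3, in bulk at an FDR of 0.05 with edgeR's filter on low counts, and on sums of nuclei per mouse at 0.2 for genes whose UMIs reached 10% of the number of nuclei. SE is the log2 difference divided by the root of the F statistic. Alternatives were edgeR's likelihood ratio test, DESeq2 1.42.0, no TMM factors, no filter, a replicate block, other settings of the nuclei and each mouse left out. The test scripts were tested on simulated data. The nuclei of a class with at least 1000 UMIs were also thinned to 1000 UMIs each. These were 24285 of 26698 nuclei, and the smaller nuclei were left out of the thinned shares. Genes named are the 9 members, for each comparison the called pathway genes and the 2 of smallest p, and the 3 genes most like each member. The members and lists were chosen with earlier results of these data known. The single genes of some marker lists are not reported here.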

Additional observations from a re-analysis of the deposited data

Results flagged for a closer look

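In 12 of 110 groups of 4 or 5 mice examined, 1 mouse lay far from the rest of its group, where chance would give about 1 in 20 for independent groups. These groups share mice and nuclei, so that rate cannot be set against the count. In bulk mPFC there were 5 such values, all of control replicate 4: Drd2 at 19.0 CPM (other controls 1.79 to 4.15), Adora2a at 6.64 CPM (1.72 to 2.04), Rgs9 at 92.3 CPM (25.1 to 36.2), Penk at 16.02 CPM (3.59 to 4.96) and Tac1 at 11.2 CPM (1.81 to 2.39). The summed CPM of striatal markers was 354 in that mouse and 142 to 171 in the other controls, and its part in these values was not tested.

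Among the nuclei, CUS replicate 2 stood apart in Pde10a in 4 sums: at 922 CPM in all nuclei (other CUS mice 490 to 499), 689 CPM in nuclei other than striatal-like (410 to 438), 738 CPM in cortical excitatory-like nuclei (425 to 459) and 633 CPM in cortical inhibitory-like nuclei (406 to 444). In striatal-like nuclei it stood apart in Rgs9, at 2304 CPM (1673 to 1726). Control replicate 3 stood apart in Drd2 in all nuclei, at 9.53 CPM (other controls 12.5 to 12.8), and in Penk in cortical excitatory-like nuclei, at 57.6 CPM (37.6 to 39.7).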

How the results depend on the processing

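Of 585 values recomputed for 36 tested log2 differences, 531 kept their direction and side of the threshold. In bulk, 3 of the 9 genes were called by edgeR's likelihood ratio test (7.23% of all genes), 2 by DESeq2 (7.62%) and 3 without the filter (2.59%), against 1 as reported, and 0 to 3 with a mouse left out. Of those called in these 3 settings, 2, 1 and 2 were lower in CUS mice. All genes called were 606 as reported, 1330 by the likelihood ratio test, 1402 by DESeq2 and 133 to 1508 with a mouse left out. In all nuclei summed, 7 genes of the 9 were called without the filter, all as lower (0.847% of all genes were called), and 0 to 5 with a mouse left out. All genes called there were 1 as reported, 17, 22 and 309 by the likelihood ratio test, by DESeq2 and without the filter. For the difference between striatal-like and other nuclei, 2 were called without the filter (0.0242%), 1 without the doublet filter (0.298%) and 0 to 1 with a mouse left out. The striatal-like share differed by -4.23 points with 1000 genes required. The share of striatal-like nuclei with a UMI had a median over the 9 genes of 47.1% and, thinned, of 30.3%.

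Correlations of same-numbered deviations were 0.03 to 0.23 in bulk and 0.36, -0.07, 0.40 and -0.45 in nuclei. They cannot show whether same-numbered mice shared a batch, and no pairing was assumed in the main tests. With a replicate block, 238 bulk genes were called, 1 of them among the 9, and Drd3 (FDR = 0.121) and Ptpn5 (FDR = 0.0685) were not.

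Some directions turned. In striatal-like nuclei these were Adora2a with 1000 genes required (0.044), Drd2 by DESeq2 (0.00499), without TMM factors (0.00212) and with the 9 genes among the variable genes (0.00629), Ppp1r1b without the filter (-0.015), and Rgs9 without the filter (-0.018) and without the doublet filter (-0.045). With a mouse left out, bulk log2 differences ranged from -0.76 to 0.0073 for Drd1, -0.81 to 0.12 for Adora2a and -1.16 to 0.16 for Tac1, and Pde10a in all nuclei from -0.21 to 0.15. In striatal-like nuclei the ranges were -0.18 to 0.049 for Adcy5, -0.061 to 0.025 for Adora2a, -0.13 to 0.054 for Drd2, -0.20 to 0.070 for Pde10a, -0.039 to 0.12 for Ppp1r1b and -0.11 to 0.059 for Rgs9. In inhibitory-like nuclei they were -0.054 to 0.19 for Pde10a, -0.17 to 0.085 for Penk and -0.24 to 0.030 for Tac1. The cause was not tested. With 296 Adora2a and 529 Drd2 UMIs in all, depth limits what the nuclei can show for these genes.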
